A study of Mus musculus with 20 samples.

Results

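The 6 mouse embryos that received an siRNA against Klf5 differed from each other in how much Klf5 RNA they still held, and they are described here in the order of that residual level. They are 6 of the 20 samples of the series. The 6 carry the labels of Klf5 knockdown at embryonic day 4.5 (E4.5), replicates 1 to 6, and their order was chosen by their measured Klf5 CPM, the Klf5 count relative to all counts of the library. Klf5 values are therefore given as a description without a test. The series also holds 10 E4.5 embryos given a scramble siRNA and 4 libraries of embryonic stem cells from C57BL/6J mice that overexpress GFP or Klf5. All 16 embryos came from mice that the labels spell C57BL/5J, were cultured in KSOM medium with bovine serum albumin under oil, and differed in the labels only in the siRNA. The titles name each library as 1 embryo replicate, and whether a library held a single embryo is not stated otherwise. Libraries were made with the SMARTseq-V4 kit, which amplifies polyadenylated RNA from very small samples. The sources used here do not say when the siRNA was given, from which litters the embryos came or what sex they were.

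Klf5 is a zinc finger transcription factor of the Kruppel-like family. It is present from the cleavage stages on and is known for its part in the trophectoderm, the outer epithelium that pumps fluid into the blastocyst and forms the placenta, and in the inner cell mass, from which the epiblast and the primitive endoderm arise. Kruppel-like and Sp factors bind GC-rich boxes, which are common in promoters. An siRNA lowers a message without removing its gene, so embryos treated alike can keep unlike amounts of the message.

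The stretches that surround the start sites of Cldn4, Aqp3 and Id2 are shown because these 3 genes had the smallest p-values in the trophectoderm list when levels were set against Klf5. Cldn4 is a claudin of tight junctions, Aqp3 a water and glycerol channel, and Id2 a helix-loop-helix protein that cannot bind DNA and holds back other such factors. Each stretch runs from 250 bases before to 50 bases after the start site, from RefSeq on build GRCm38.p6. The Cldn4 stretch lies at chr5:134946885-134947184, that of Aqp3 at chr4:41098134-41098433 and that of Id2 at chr12:25096043-25096342, all on the minus strand. Capitals mark matches to CCNCNCCC, a letter pattern of GC-rich boxes, on either strand.
Cldn4: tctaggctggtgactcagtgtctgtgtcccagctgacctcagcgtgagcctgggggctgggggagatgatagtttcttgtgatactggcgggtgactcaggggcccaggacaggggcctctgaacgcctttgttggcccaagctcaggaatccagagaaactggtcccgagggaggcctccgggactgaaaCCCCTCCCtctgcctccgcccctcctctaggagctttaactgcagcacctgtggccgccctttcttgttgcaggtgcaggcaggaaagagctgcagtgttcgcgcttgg
Aqp3: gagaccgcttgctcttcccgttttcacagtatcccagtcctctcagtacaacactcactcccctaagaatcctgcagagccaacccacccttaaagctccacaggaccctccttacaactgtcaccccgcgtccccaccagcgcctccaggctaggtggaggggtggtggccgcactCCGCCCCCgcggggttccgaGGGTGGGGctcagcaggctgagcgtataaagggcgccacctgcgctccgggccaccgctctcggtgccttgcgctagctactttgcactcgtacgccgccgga
Id2: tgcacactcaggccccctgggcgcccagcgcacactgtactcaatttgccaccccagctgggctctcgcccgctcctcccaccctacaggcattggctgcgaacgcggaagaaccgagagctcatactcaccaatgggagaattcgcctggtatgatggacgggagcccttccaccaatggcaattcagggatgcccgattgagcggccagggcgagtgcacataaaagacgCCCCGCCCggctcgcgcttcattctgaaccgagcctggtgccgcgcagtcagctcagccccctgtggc
Cldn4 and Id2 held 1 match on the printed strand, and Aqp3 held 1 on each strand. The pattern was common. It was found in 49.5% of all 32851 promoters of that table, in at least 1 promoter of 71.2% of the 9859 tested genes listed there, and likewise in 21 of 26 tested trophectoderm genes. A match describes letters only and is not a binding site.

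Klf5 (ENSMUSG00000005148, chr14:99298691-99315036 on GRCm38) stood at 69.5 CPM of total counts in embryo 4, 88.4 in embryo 2, 98.7 in embryo 5, 193 in embryo 3, 222 in embryo 6 and 423 in embryo 1. These levels were 13.5%, 17.1%, 19.1%, 37.5%, 42.9% and 82.0% of the scramble median. The 10 scramble embryos lay between 408 and 666, with a median of 516. Embryos 4, 2, 5, 3 and 6 therefore lay below every scramble embryo, while the embryo labelled Klf5 siRNA 1 lay above the lowest of them. Its Klf5 level goes against its label, and values without it are given beside the slopes and counts that change most when it is left out. From the lowest to the highest embryo Klf5 spanned 6.09-fold, or 2.61 doublings, against 1.63-fold among the scramble embryos. Neighbours in the order were 1.27-, 1.12-, 1.96-, 1.15- and 1.91-fold apart. The closest pair, embryos 2 and 5, had 95% Poisson intervals of 84.1 to 93.0 and 94.1 to 103, which cover counting error only. All further levels are CPM over library sizes scaled by the trimmed mean of M-values (TMM), and are listed in the order of Klf5, that is embryos 4, 2, 5, 3, 6 and 1. On this scale Klf5 itself was at 80.6, 111, 117, 195, 292 and 543 CPM. The scramble embryos then had a median of 471 and a range of 381 to 591, so that embryo 1 lay above their median.

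**Figure D1:**
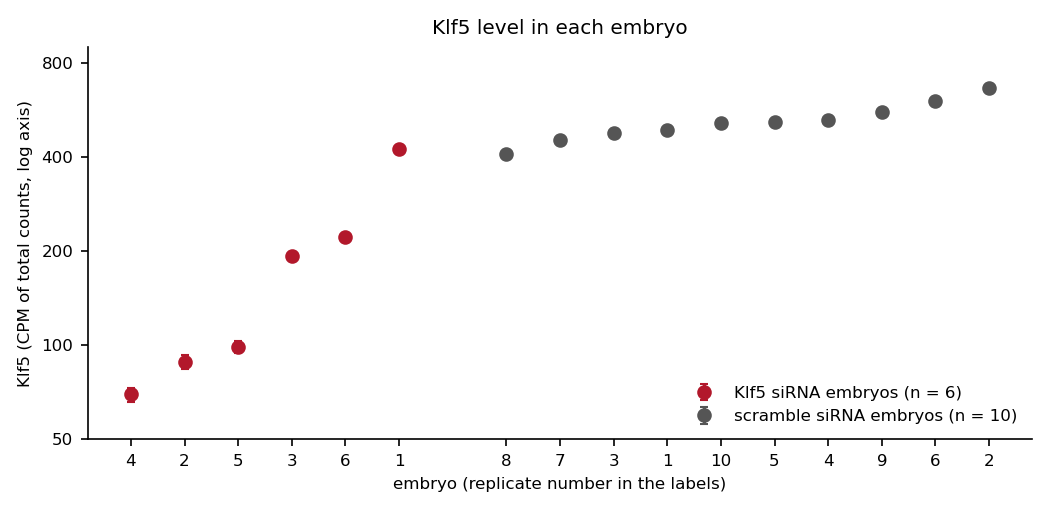
Klf5 in CPM of total counts on a log axis for each embryo, with points for single embryos and bars for 95% Poisson intervals of the counts. The 6 Klf5 siRNA embryos run from 69.5 to 423 and the 10 scramble embryos from 408 to 666, so only embryo 1 overlaps the scramble embryos.

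Depth did not follow the order over all 6 embryos, with Pearson's r of -0.197 between total counts and log2 Klf5. Without the 2 embryos farthest from the median Klf5 this r was 0.912. Totals were 14.9e6 to 23.4e6 counts in the 6 embryos and 14.7e6 to 24.9e6 in the scramble embryos. Embryo 4, with the lowest Klf5, also had the fewest genes with a count, 13114, against 14137 to 14756 in the other 5, and its mean log2 level over all genes tested was 0.32 below the scramble mean (range of the scramble embryos -0.12 to 0.11). Embryo 2 had the highest share of mitochondrial counts, 10.3% against 2.45% to 5.30% in the other 5, and the highest summed level of 14 cumulus and granulosa cell markers, 18.4 CPM against 1.18 to 2.90, with a scramble range of 0.331 to 54.7. Of these 14 markers 5 were at 0 in all 6 embryos. The summed level of 10 blood and immune markers was 6.76 to 47.5 CPM in the 6 and 0.75 to 20.4 in the scramble embryos. Of the markers of the lineages of this stage, every siRNA embryo held Pou5f1 (61.1 to 215 CPM), Krt18 (50.5 to 1377) and Gata6 (7.48 to 77.2). The same held for Nanog (25.6 to 113), Krt8 (28.8 to 1049), Gata3 (50.0 to 179) and Pdgfra (3.35 to 16.0). Other markers were near 0 in some embryos. Cdx2 stood at 0.363 CPM in embryo 2 and Sox2 at 0.537 in embryo 5. Gata4 was at 0.168 in embryo 4 and 0.0858 in embryo 1. Sox17, at 0.0559 to 3.78, lay below the scramble range in all 6.

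The main axis of difference among the 6 embryos ran in the order of Klf5. The first principal component of the 13101 genes tested, with Klf5 left out, held 30.1% of the variance and placed the embryos at -156, -46.7, 10.0, 49.5, 55.6 and 87.3. Spearman's rho with Klf5 was 1.0, with an exact 2-sided permutation p of 0.00278, the smallest that 6 embryos allow, and 0.0167 after Benjamini-Hochberg adjustment over 6 library measures. Pearson's r with log2 Klf5 was 0.87 (exact permutation p = 0.0194, adjusted 0.117), and 0.912 without the 2 embryos farthest from the median. When the component was recomputed without 1 embryo at a time, r lay between 0.728 (without embryo 4) and 0.928. With Klf5 on a linear scale r was 0.758. Over these 6 recomputed values and the 1 on a linear scale, the exact permutation p of r was no longer under 0.05 in 5. The number of genes with a count was next closest to the order, with r of 0.696 (exact permutation p = 0.103) and rho of 0.771 (exact permutation p = 0.103), both 0.308 after adjustment. Without the 2 embryos farthest from the median Klf5, r for the number of genes with a count was 0.891. In the order of Klf5 the embryos had 13114, 14137, 14467, 14756, 14683 and 14556 genes with a count. Embryo 4 was thus lowest both in this number and on the main axis. The part of this number, or of depth, in the main axis was not tested. The second component (24.6% of the variance) set embryo 2 apart, at -155, from the other 5 at 5.30 to 73.9.

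The count of genes outside the scramble embryos' range also changed along the order. On scaled library sizes 3112 of 14953 genes (20.8%) lay below all 10 scramble embryos in embryo 4, 2728 (18.2%) in embryo 2, 2264 (15.1%) in embryo 5, 2262 (15.1%) in embryo 3, 2060 (13.8%) in embryo 6 and 1947 (13%) in embryo 1. The number thus became smaller at each step towards higher Klf5. This did not hold on column totals, where the counts were 3903, 3751, 3247, 2732, 3636 and 3458. Genes above the range numbered 2883 (19.3%), 3388 (22.7%), 2860 (19.1%), 2686 (18%), 2462 (16.5%) and 2646 (17.7%), with no such order. Embryo 1, with Klf5 inside the scramble range, had 1947 genes below and 2646 above their scramble ranges. A further control embryo would also lie outside the range of 10 embryos for some genes, and how many was not estimated. The counts of each embryo are therefore not numbers of genes changed by the siRNA.

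**Figure D2:**
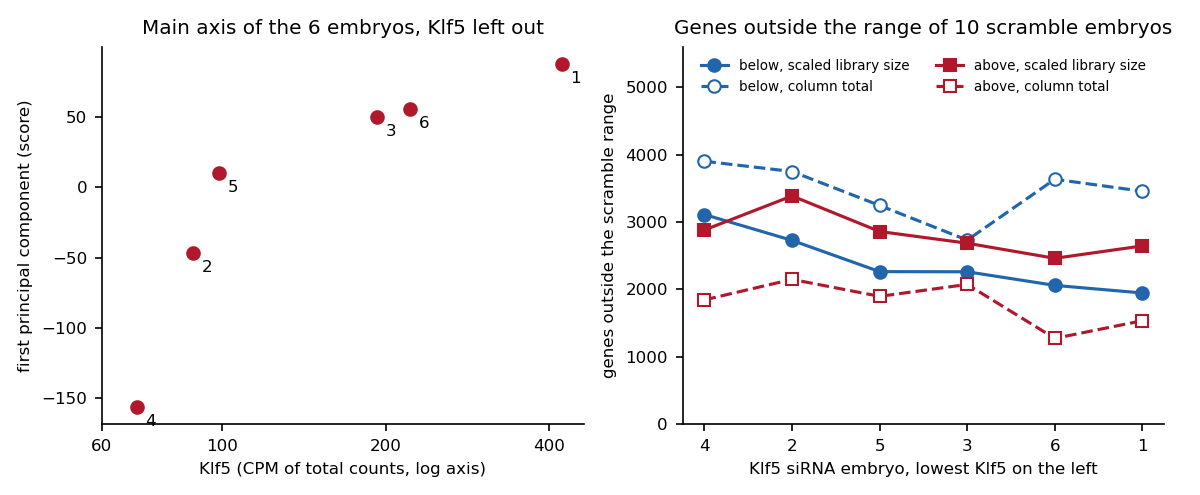
Left, score of each Klf5 siRNA embryo on the first principal component against Klf5 in CPM of total counts on a log axis, each point 1 embryo with its number. Right, number of genes below (blue) and above (red) the range of the 10 scramble embryos, with scaled library sizes (filled) and column totals (open). The score runs from -156 to 87.3 in the order of Klf5, and the blue filled points go from 3112 down to 1947.

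No single gene passed the test of following Klf5 at an adjusted p under 0.05. In a fit over the 6 embryos a slope was estimated for each gene as the log2 change per doubling of Klf5 (edgeR quasi-likelihood test, Benjamini-Hochberg adjustment). It called 0 of 13101 genes (0%), with a smallest adjusted p of 0.128. At an unadjusted p under 0.05 there were 1065 genes (8.13%), of which 523 (3.99%) were higher and 542 (4.14%) lower with more Klf5. DESeq2 called 343 genes, 206 higher and 137 lower, and limma voom called 0. On simulated counts of this design edgeR recovered 7.46% of genes with a slope of 1, 62.7% with a slope of 2 and 93.9% with a slope of 4. Slopes below are therefore given with their standard error (SE) as measured values of genes that did not pass the edgeR adjustment.

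Trophectoderm genes were mostly lower in the embryos with less Klf5. Of 37 listed genes 33 were measured in this fit. Of these, 10 were higher with Klf5 and 1 lower at an unadjusted p under 0.05, beside 3.99% and 4.14% of all genes. Slopes were positive for 23 of 33, with a median of 0.48 against -0.02 over all genes. The median stayed between 0.29 (without embryo 6) and 0.57 as embryos were left out, with 0.31 without embryo 1 and 0.57 without embryo 4. Because these are whole embryos, fewer trophectoderm cells and less RNA per cell cannot be told apart.

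Among the transcription factors of the lineage, Cdx2, the caudal-type factor that specifies trophectoderm, stood at 1.40, 0.363, 2.89, 10.8, 16.7 and 18.1 CPM, against 14.7, 29.1 and 131 as the lowest, median and highest scramble values. The 4 embryos with the least Klf5 lay below every scramble embryo, and embryos 6 and 1 lay inside the range but below its median. On column totals all 6 lay below the range. The slope of Cdx2 was 1.85 ± 0.52 (SE; adjusted p = 0.348 in edgeR and 0.0116 in DESeq2), and 2.36 without embryo 1. Eomes, a T-box factor needed for trophoblast development, was at 3.85, 5.88, 17.8, 22.6, 54.3 and 47.8 CPM. All 6 values lay below the scramble range of 56.8 to 113, with the deepest values in embryos 4 and 2 and a slope of 1.39 ± 0.38 (adjusted p = 0.344 in edgeR and 0.0104 in DESeq2). Tfap2c, an AP-2 factor of the trophoblast, ran from 5.88 CPM in embryo 2 to 45.9 in embryo 1, and 3 embryos lay below the scramble range of 18.1 to 50.6. Its slope of 0.97 ± 0.28 had an adjusted p of 0.348 in edgeR and 0.0514 in DESeq2.

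Id2 was at 33.1, 18.4, 272, 193, 1275 and 1476 CPM. Embryos 4, 2, 5 and 3 lay below the scramble range of 519 to 1181, and embryos 6 and 1 lay above it. On column totals only 1 embryo lay above. Its slope was 2.09 ± 0.55 (adjusted p = 0.341 in edgeR and 0.00055 in DESeq2), and 2.60 without embryo 1.

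The products of the differentiated epithelium were ordered in a similar way. Krt8 and Krt18 encode the partner keratins of simple epithelia. Krt8 was at 156, 28.8, 308, 284, 719 and 1049 CPM, and only embryo 1 reached the scramble range of 964 to 2804. On column totals all 6 lay below it for Krt8. Krt18 was at 344, 50.5, 410, 573, 1377 and 925 CPM, with embryos 6 and 1 inside the range of 798 to 5018. Embryo 2 was lowest for both keratins although embryo 4 held less Klf5. Aqp3 was at 5.86, 8.28, 18.0, 77.1, 34.8 and 69.6 CPM, against a scramble range of 64.9 to 173. In DESeq2 the adjusted p of the slope was 0.0526 for Krt8, 0.225 for Krt18 and 0.00336 for Aqp3. Cldn4 was at 31.3, 11.1, 14.7, 55.7, 73.3 and 252 CPM, with embryos 2 and 5 below the scramble range of 26.9 to 336. Its slope of 1.36 ± 0.29 was the one with the smallest p in the list (unadjusted 0.000804, adjusted 0.169 in edgeR, 0.00571 in DESeq2), and it was 1.04 without embryo 1. Tspan8, a tetraspanin outside the list, was at 10.1, 13.2, 44.5, 213, 434 and 419 CPM, so that all 6 embryos lay below the scramble range of 693 to 1647 and the 2 lowest were far under it.

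Other trophectoderm genes were low in all 6 embryos whatever their Klf5. Elf5, an ETS factor of trophoblast stem cells, was at 0.279, 1.31, 1.75, 0.302, 3.97 and 1.03 CPM, against 4.82, 16.4 and 52.3 in the scramble embryos. Fgfr2, the receptor through which FGF reaches the trophectoderm, was at 55.7, 26.2, 44.1, 30.2, 31.3 and 38.7 CPM and its scramble range was 70.4 to 194. Lcp1, an actin-bundling plastin, was at 69.3, 14.9, 91.0, 20.8, 119 and 33.4 CPM, below a range of 181 to 689. For these 3 genes embryo 1, with Klf5 near the control level, was as far below the range as embryos with much less Klf5. In all, 7 of 36 measured trophectoderm genes lay below every scramble embryo in all 6 embryos, and 0 lay above. Over all genes 237 of 14953 (1.58%) lay below and 361 (2.41%) above in all 6, which became 602 below and 129 above on column totals. Without embryo 1 there were 333 genes below and 475 above in the other 5. The 7 were Eomes, Ddah1, Elf5, Fgfr2, Lcp1, Ndrg1 and the proton pump gene Atp12a. On column totals each of the 7 again lay below in all 6, among 10 genes of the list.

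Ascl2, an imprinted basic helix-loop-helix factor of later trophoblast, ran the other way. It was at 32.6, 26.1, 14.2, 2.42, 10.8 and 2.57 CPM, with 4 embryos above the scramble range of 0.455 to 7.74, and its slope was -1.34 ± 0.39 (unadjusted p = 0.00598). The mean log2 level of the whole list relative to the scramble mean was -1.84, -2.32, -0.71, -1.63, -0.49 and -0.56, below the scramble range of -0.38 to 0.24 in all 6.

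**Figure D3:**
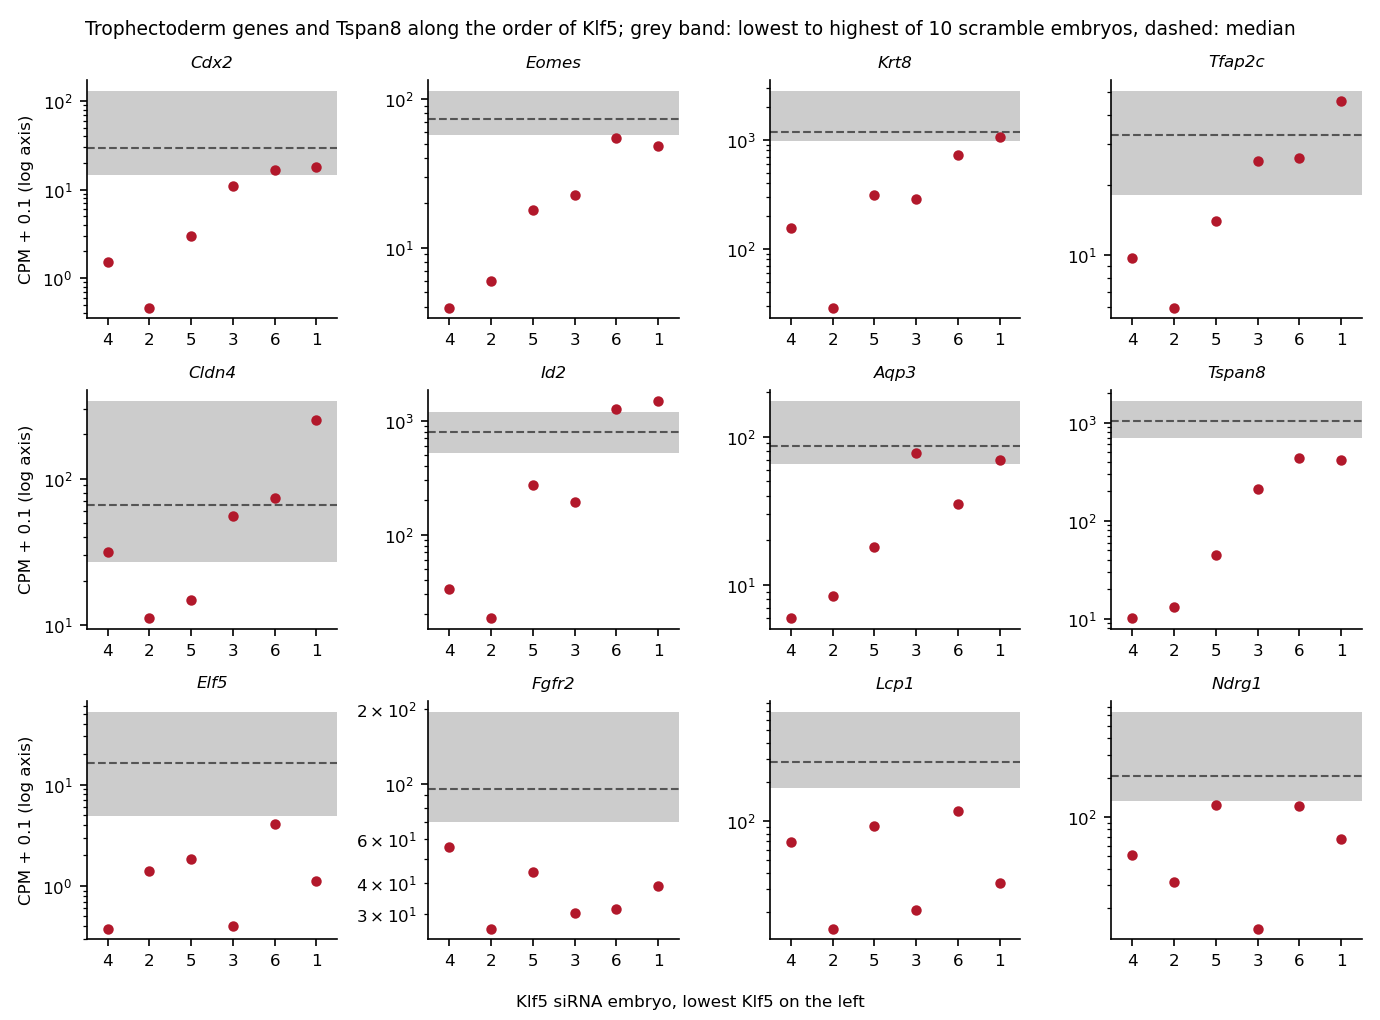
Levels of 11 trophectoderm genes and Tspan8 in the 6 Klf5 siRNA embryos in CPM of scaled library size plus 0.1 on log axes, with embryos from the lowest Klf5 (left) to the highest (right). The grey band spans the 10 scramble embryos and the dashed line is their median. Cdx2 and Eomes climb towards the band, whereas Elf5, Fgfr2, Lcp1 and Ndrg1 lie under it in all 6 embryos.

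Epithelial adhesion genes also held members that were lowest where Klf5 was low and members low throughout. Of 32 measured members 3 were higher with Klf5 and 0 lower at an unadjusted p under 0.05, beside 3.99% and 4.14% of all genes. The median slope was 0.22. The 3 were Epcam, Grhl2 and Cldn4, which is also in the trophectoderm list. Epcam, an epithelial adhesion molecule, was at 309, 315, 292, 479, 770 and 731 CPM, with the 4 embryos of lowest Klf5 below the scramble range of 622 to 1304. On column totals Epcam lay below its scramble range in all 6 embryos and Grhl2 in 5. The slope of Epcam was 0.60 ± 0.20 (unadjusted p = 0.0127 in edgeR, adjusted 0.149 in DESeq2). Grhl2, a grainyhead factor that drives epithelial genes, was at 1.56, 7.92, 7.25, 37.7, 10.5 and 20.5 CPM against 16.5 to 35.7. Its slope had an adjusted p of 0.169 in DESeq2. In contrast Cdh1, which encodes E-cadherin, was at 137, 187, 148, 62.9, 76.8 and 153 CPM and lay under the scramble range of 204 to 895 in every embryo, with a slope of -0.17 ± 0.25. Its cytoplasmic partner Ctnna1 lay at 103 to 149 CPM, under 173 to 207. The desmosomal cadherin Dsc2 was also low in all 6 (0.0726 to 9.36 against 11.7 to 68.6). Below the range in all 6 were these 3 genes of the list, beside 1.58% of all genes, and 11 on column totals, beside 602 of all 14953 genes.

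Naive pluripotency genes did not move as 1 group. Of 28 measured members 4 were higher and 1 lower with Klf5 at an unadjusted p under 0.05, beside 3.99% and 4.14% of all genes, with a median slope of 0.20. The 4 were Tfcp2l1, Tet2, Utf1 and Dppa3, and the 1 was Klf2. Tfcp2l1, a transcription factor of the naive state, was at 130, 152, 183, 285, 324 and 372 CPM, in the exact order of Klf5 on this scale, and spanned the scramble range of 131 to 338. Tet2, which oxidises methylated cytosine, was at 2.29, 1.96, 16.5, 30.9, 42.6 and 43.9 CPM, with embryos 4 and 2 below the scramble range of 7.53 to 58.7. Utf1, a chromatin protein of pluripotent cells, was at 0.447, 5.66, 4.77, 28.9, 17.6 and 22.4 CPM, against 3.63 to 37.9. In DESeq2 the adjusted p of the slope was 0.0845 for Tfcp2l1, 0.0116 for Tet2 and 0.0256 for Utf1. Dppa3, a maternal factor that guards DNA methylation, was at 4602, 10423, 8687, 13877, 15136 and 14109 CPM, where 5 embryos lay above the scramble range of 2073 to 6214.

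Nanog, Pou5f1, Sox2 and Klf4 did not follow the order. Nanog was at 25.6, 63.8, 32.2, 113, 33.3 and 37.5 CPM (slope 0.17 ± 0.40) and Pou5f1 at 215, 61.1, 74.9, 119, 150 and 61.5 CPM (slope -0.29 ± 0.31). Both ranged from inside to above the scramble values, which were 16.6 to 56.9 for Nanog and 15.8 to 140 for Pou5f1. Spic, an ETS factor, was above the scramble range of 25.5 to 82.8 CPM in all 6, at 441, 200, 207, 606, 273 and 97.4, and in 5 on column totals. Stat3, the signal transducer of the LIF receptor, was below its range of 49.5 to 72.6 in all 6, at 18.6 to 40.4 CPM.

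Klf2 and Klf6, relatives of Klf5, were mostly higher where Klf5 was lower, though neither slope passed adjustment. Klf2 was at 39.7, 26.1, 68.4, 18.2, 16.6 and 14.4 CPM, and the 3 embryos with the least Klf5 lay above the scramble range of 6.63 to 23.8. Klf6 was at 283, 226, 149, 41.9, 72.3 and 69.1 CPM, with embryos 4 and 2 above the range of 62.4 to 182 and embryo 3 below it. On column totals Klf2 lay above its range in 2 embryos, and Klf6 lay above in 1 and below in 3. The slope of Klf2 was -0.75 ± 0.31 (unadjusted p = 0.037 in edgeR, adjusted 0.276 in DESeq2). That of Klf6 was -0.86 ± 0.26 (unadjusted p = 0.00714 in edgeR, adjusted 0.0931 in DESeq2). Of 17 measured Kruppel-like and Sp factors these 2 alone reached an unadjusted p under 0.05, beside 8.13% of all genes in either direction. The median slope was -0.44, or -0.05 without embryo 1.

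Primitive endoderm genes differed widely between the embryos, with 2 of 26 measured genes higher with Klf5 and 1 lower at an unadjusted p under 0.05, which is near the 3.99% and 4.14% of all genes. Their median slope was -0.20, and 0.12 without embryo 1. The 2 were Apoa1 and Nid2, a basement membrane nidogen at 43.9 CPM in embryo 1 and 0 to 1.49 in the other 5, and the 1 was Cubn, an endocytic receptor. Without embryo 1 the slope of Nid2 went from 2.83 to 1.04 and that of Cubn from -1.05 to -0.60. Apoa1, an apolipoprotein, was at 10.1, 5.95, 9.27, 105, 135 and 63.9 CPM, so that the 3 embryos with the least Klf5 lay below the scramble range of 32.7 to 160 and the other 3 inside it. Of the basement membrane genes in the list, Lama1 and Sparc are given because their levels differed widely. Lama1, a laminin chain, was at 0.0559, 0.145, 74.6, 7.21, 48.1 and 4.55 CPM, and Sparc, a matrix-binding glycoprotein, at 1.84, 18.1, 262, 6.04, 104 and 43.5. Embryos 5 and 6 were highest for both genes and lay inside the scramble range for Lama1 (13.7 to 177), while embryo 5 exceeded that of Sparc (34.0 to 130). Sox17, an endoderm factor, was under its scramble range of 6.96 to 46.9 CPM in all 6, at 0.0559 to 3.78. The list's median SD among the 6 embryos on the log2 scale was 1.69, against 0.822 among the scramble embryos.

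Among all genes, those with the smallest p in the fit included several that rested on 1 embryo. Of 8 named genes higher with Klf5, Ube4a, a ubiquitin ligase, was at 4.97, 6.90, 12.2, 13.4, 18.2 and 182 CPM, and its slope of 1.80 was 0.90 at the lowest when 1 embryo was left out. Tmem109 (2.46, 0.654, 3.96, 3.93, 9.11 and 209 CPM) and Serpina3m (0.0559, 0, 0, 0.0431, 1.30 and 64.8) likewise stood out in embryo 1 alone. Without it the slope of Tmem109 was 1.12. S100a6, a calcium-binding protein, was spread along the order, at 2.01, 4.36, 8.59, 29.2, 37.4 and 73.1 CPM (scramble range 4.37 to 31.1), with a slope of 1.95 ± 0.32.

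On the other side Ctsl, the lysosomal protease cathepsin L, was at 1823, 535, 693, 221, 236 and 103 CPM. The 3 embryos with the least Klf5 lay above the scramble range of 134 to 340, and embryo 1 lay below it. Its slope was -1.46 ± 0.23 (adjusted p = 0.128 in edgeR and 6.44e-06 in DESeq2). Bcor, a corepressor of the polycomb system, was at 59.3, 25.1, 17.1, 8.20, 3.72 and 1.72 CPM, in strict order and from above to below the scramble range of 3.08 to 9.45. The X-linked kinase gene Rps6ka6 was at 46.5, 29.8, 5.10, 0.777, 0.558 and 0.343 CPM, also in strict order. Xbp1, a transcription factor of the unfolded protein response, was at 351, 142, 99.0, 85.3, 45.2 and 31.9 CPM, with embryos 4 and 2 above the scramble range of 28.9 to 121.

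A strict order, in which every step of Klf5 brings a step of the gene in the same or the opposite direction, was kept by few genes. On column totals 31 of 13101 genes (0.237%) were higher and 35 (0.267%) lower at every step. On both scales 21 and 19 were. Of all orders of 6 values a fraction of 0.00278 rises or falls throughout, so some such genes occur without any relation to Klf5. No chance test was made. Orders of 5 embryos, with any 1 left out, were kept by 214 to 410 genes. No member of the fixed lists was among the 66. Cish, an inhibitor of cytokine signalling, was at 0, 0.363, 3.16, 12.1, 16.0 and 19.0 CPM, and all 6 embryos lay below a narrow scramble range of 29.6 to 43.5. Fbln1, a matrix glycoprotein, showed the same picture, at 0.223, 3.92, 8.59, 10.7, 19.9 and 28.0 CPM against 29.5 to 64.3. Slc51b, a bile acid and steroid carrier subunit, was at 0, 0.0726, 1.95, 5.05, 19.3 and 21.1 CPM, and reached the scramble range of 3.54 to 26.4 from embryo 3 on. Among the genes in the opposite order Cobll1 was at 20.7, 5.45, 3.63, 1.42, 0.744 and 0.601 CPM and Maged2 at 38.7, 13.0, 7.99, 3.15, 2.85 and 0.686, with the low-Klf5 embryos above the scramble ranges of 0 to 2.05 and 0.864 to 8.50.

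Many genes differed between the embryos without following Klf5. Of 8189 genes with a mean of at least 5 CPM, 2888 had an absolute rank correlation with Klf5 of at most 0.3, and 691 of those (23.9%) had an SD of at least 1 on the log2 scale. The median SD of the 2888 was 0.687 among the 6 siRNA embryos and 0.616 among the scramble embryos. Over all 8189 genes these medians were 0.716 and 0.605, so genes off the order were not more variable than genes in general. Eif2s3y, a translation factor gene of the Y chromosome, was at 77.4, 0.0726, 0.201, 104, 68.3 and 0.257 CPM, so that embryos 4, 3 and 6 held it and embryos 2, 5 and 1 were near 0. Ddx3y split the embryos in the same way, at 16.4, 0, 0, 21.7, 10.3 and 0.172 CPM. Uty did so less cleanly, since embryo 1 stood at 6.86 CPM beside 0.581 and 0.940 in embryos 2 and 5. The scramble embryos also ranged from 0.194 to 81.0 CPM for Eif2s3y. Xist was not analysed here.

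Single embryos stood out for other genes. Zscan4f, a gene of the brief 2-cell-like state, was at 0.0559, 16.9, 25.6, 0, 0 and 0 CPM and was listed at 0 in all 10 scramble embryos, so that 2 of the 3 embryos with the least Klf5 held it. Its family has near-identical copies, so reads may have been shared among them. Plagl1, an imprinted zinc finger gene, was at 17.2, 759, 44.0, 6.69, 1.05 and 27.2 CPM, and embryo 2 exceeded the scramble range of 7.56 to 115. Mycl, a Myc family gene, was at 120 CPM in embryo 1 and 0 to 3.70 in the other 5. Hopx, a homeodomain protein that does not bind DNA, was at 23.2, 46.9 and 24.9 CPM in embryos 2, 5 and 6 and at 0 to 1.98 in embryos 4, 3 and 1.

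**Figure D4:**
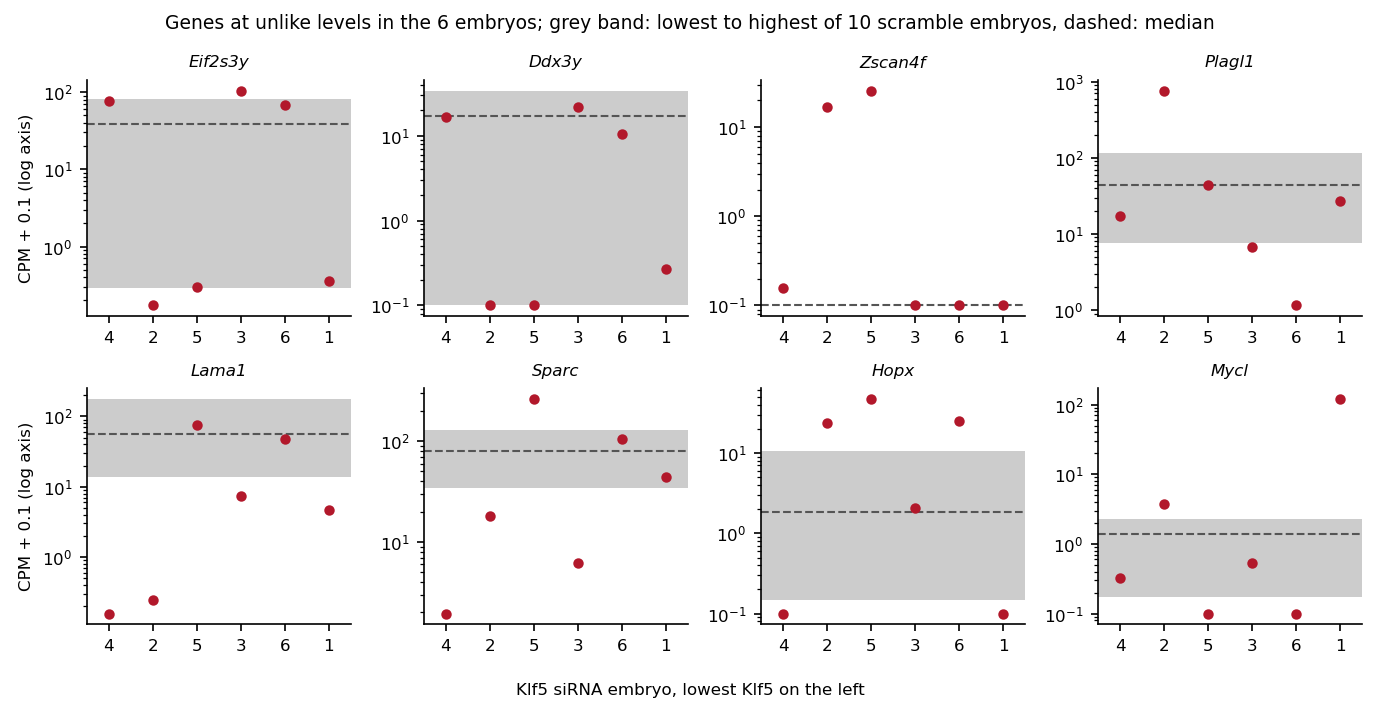
Levels of 8 genes with unlike values in the 6 Klf5 siRNA embryos, in CPM of scaled library size plus 0.1 on log axes, embryos from the lowest Klf5 (left) to the highest (right). The grey band spans the 10 scramble embryos and the dashed line is their median. Eif2s3y and Ddx3y are high in embryos 4, 3 and 6, Zscan4f in embryos 2 and 5, Lama1 and Sparc in embryos 5 and 6, and Mycl in embryo 1.

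Of the 237 genes below and 361 above the scramble range in all 6 embryos, 68 and 129 were off the order. Off it were also 2888 of the 8189 genes with a mean of at least 5 CPM. These counts are thus not read as a trait of genes outside the range. Aldh18a1, which makes proline precursors, was at 7.04, 8.57, 17.7, 7.29, 8.92 and 4.80 CPM, against 23.7 to 65.5 in the scramble embryos. Slc7a5, the large neutral amino acid transporter, was at 0.726, 6.54, 9.80, 8.33, 3.53 and 2.83 CPM against 19.9 to 54.3. In the other direction Mgl2, a C-type lectin gene, was at 24.1, 58.5, 25.9, 73.2, 24.8 and 27.1 CPM against 0.683 to 8.63. Embryo 1 was not closer to the scramble range than the rest for Aldh18a1 or Mgl2.

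Genes of the p53 response included Cdkn1a and Bax, both above every scramble embryo in all 6 embryos. Cdkn1a, the cell cycle inhibitor p21, was at 527, 661, 237, 359, 210 and 267 CPM and Bax, which opens the mitochondrial membrane in apoptosis, at 257, 125, 123, 120, 177 and 98.5. All 6 embryos lay above the scramble ranges of 19.1 to 110 and 14.0 to 93.1. On column totals this held for Cdkn1a, while Bax was above in 3 embryos. These 2 were the members of the 20-gene list above the range in all 6, beside 2.41% of all genes. Of 18 measured members 0 were higher and 1 lower with Klf5 at an unadjusted p under 0.05, beside 3.99% and 4.14% of all genes. The median slope was -0.30. Only 3 of the 18 slopes were positive, against 48.3% of all genes. The 1 was Trp53inp1, a stress-induced gene at 63.1, 238, 33.4, 35.6, 23.9 and 30.7 CPM.

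**Figure D5:**
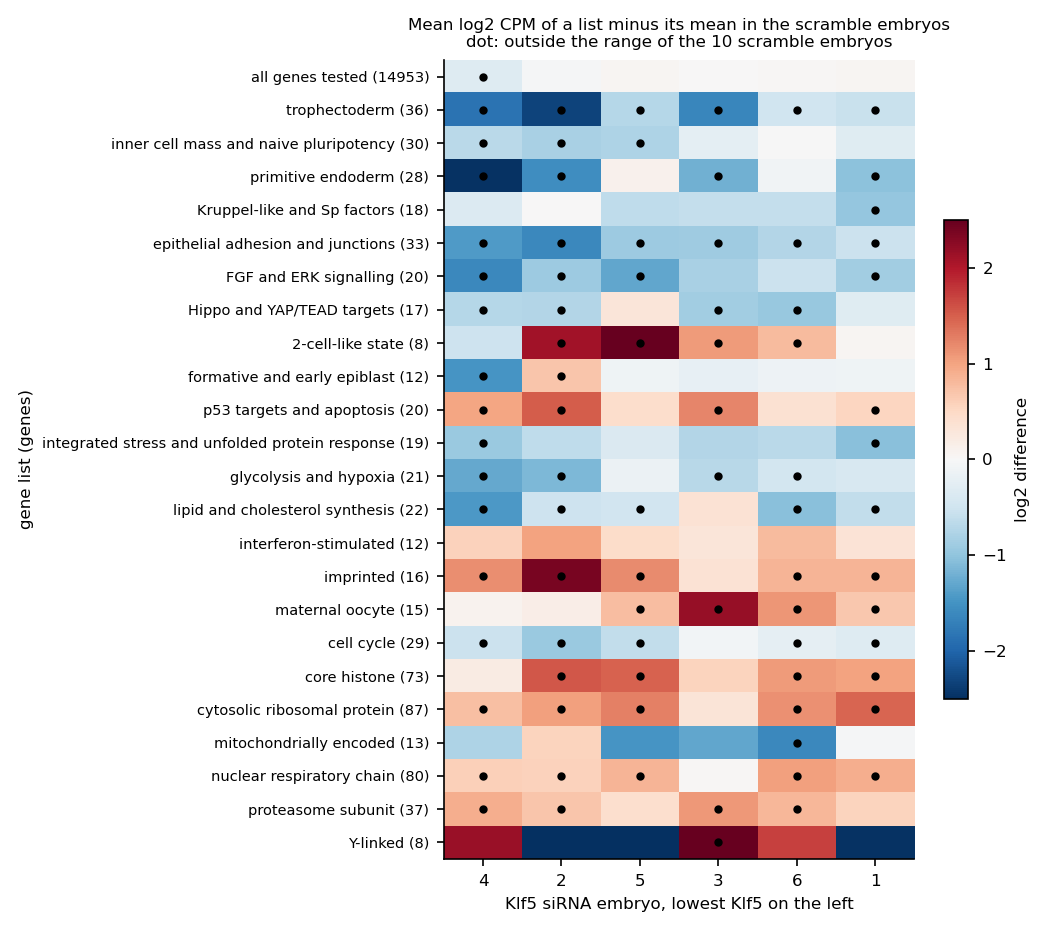
Mean log2 CPM of each gene list with at least 8 measured genes (number in brackets) minus its mean in the scramble embryos, for the 6 Klf5 siRNA embryos from the lowest Klf5 (left) to the highest. Dots mark values outside the range of the 10 scramble embryos. The trophectoderm row is below that range in all 6 embryos, from -2.32 to -0.49, and the row of all genes shows embryo 4 at -0.32.

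The scramble embryos allowed the same question at control levels of Klf5, over a span of 0.706 doublings. Their fit called 0 of 13027 genes (0%) in edgeR, with 332 genes (2.55%) at an unadjusted p under 0.05, 1 gene by DESeq2 and 0 by limma voom. The slope of Cdx2 was 2.27 ± 1.58 there and that of Eomes 0.50 ± 0.68. Of 35 trophectoderm genes measured in the scramble fit, 27 had a positive slope, with a median of 0.50 against 0.07 over all genes. In the siRNA embryos these values were 23 of 33 and 0.48, so the list leaned the same way in both groups. At an unadjusted p under 0.05, 2 of the 35 were higher with Klf5 and 0 lower in the scramble fit. A test of the difference between the slopes of the 6 and of the 10 embryos called 0 of 14953 genes (0%) in edgeR, with 436 (2.92%) at an unadjusted p under 0.05, 6 by DESeq2 and 0 by limma voom. In simulated counts this test recovered 0% of differences of 1, 2 or 4, so it could not have shown them at this number of embryos.

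A further fit over all 16 embryos asked which genes differed between siRNA and scramble embryos at equal Klf5. It called 207 of 14953 genes (1.38%), 186 (1.24%) higher and 21 (0.14%) lower in the siRNA embryos (edgeR, adjusted p under 0.05). Ube4a was higher by 3.43 ± 0.42 and S100a6 by 3.41 ± 0.65 on the log2 scale (edgeR adjusted p = 0.000729 and 0.0133), while Cdh1 was lower by a log2 difference of -2.39 ± 0.59 (edgeR adjusted p = 0.0465). Ube4a exceeded the scramble range in embryo 1 alone, and without that embryo its difference was 1.67 (edgeR adjusted p = 0.414). The call for Cdh1 was lost in 19 of 27 alternatives, among them a value of -3.85 without embryo 1 (edgeR adjusted p = 0.104). Lgals7, a galectin, was at 0, 4.58, 8.26, 11.2, 30.6 and 55.2 CPM against 2.20 to 10.1, and was higher by 4.71 ± 0.88 (edgeR adjusted p = 0.0126). Without embryo 1 the calls for S100a6 and Lgals7 were lost too (edgeR adjusted p = 0.127 and 0.174). The groups overlap in Klf5 at embryo 1 alone, and without it the fit called 2 genes higher and 0 lower. It called 110 genes without embryo 6, and 94 to 135 when scramble embryo 1, 3, 4, 7, 8 or 9 was left out. The median difference was also 0.62 in the lowest decile of gene length and -0.40 in the highest, and its part in these calls was not tested.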

How the data were processed

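Embryo RNA was measured in 6 Klf5 siRNA and 10 scramble siRNA libraries. The authors deposited estimated counts per gene. Per the submitters' processing notes the tool was kallisto 0.46 and the build mm10. For the annotation release the sources used here give nothing. Kallisto spreads reads over similar transcripts, so members of near-identical families are uncertain. Counts were rounded, which moved no library total by more than 0.000756%. Symbols were found for 29831 of 30265 genes, and gene coordinates are those of GENCODE M21 (GRCm38).

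Slopes on log2 Klf5 CPM were fitted with edgeR 4.0.16 (R 4.3.3), TMM factors, filterByExpr (lowest count 10) and the quasi-likelihood test, with Klf5 left out and Benjamini-Hochberg adjustment over all genes tested, at a threshold of 0.05. Principal components used log2 CPM with a prior count of 2. A gene is outside the scramble range where its CPM passes the lowest or highest of the 10 embryos. DESeq2 1.42.0, limma 3.58.1 (voom), other filters and scalings, a mitochondrial covariate, a replicate block and leaving out each embryo were the alternatives. The test was run on simulated data: with 12255 genes and 67, 67 and 66 changed genes per slope, 115 calls held 6 false ones.

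Named were Klf5, the 8 genes per direction of smallest slope p, 3 genes of each main and 1 of each other list, the 10 genes of largest SD off the order, up to 6 per direction in strict order and outside the range, and a fixed panel. Other names (such as Dppa3, Ascl2, Lama1, Sparc, Plagl1, Cdkn1a, Bax, Spic, Stat3, Ctnna1, Dsc2 and Trp53inp1) were chosen after their values were seen. Members and lists were chosen with earlier results of these data known. Embryos may share litters or culture drops, which the labels do not tell. The p-values then measure only the spread between these samples. The stem cell libraries, of which 2 overexpress GFP and 2 Klf5, enter no test here.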

Additional observations from a re-analysis of the deposited data

Results flagged for a closer look

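In 82 sets of values, 5 had 1 embryo far from the others by Dixon's criterion at the 95% level. Most sets were of the 6 siRNA embryos and a few were library measures of the 10 scramble embryos. All 5 were of siRNA embryos. Chance alone flags about 1 in 20 such sets, so 5 of 82 is near that share. Many sets were genes named for their slope or strict order, so the share is a rough guide only. Embryo 2 had the highest mitochondrial share of counts, 10.3%. Ube4a, a ubiquitin ligase gene, stood at 182 CPM in embryo 1, the highest of the 6. Embryo 4 was lowest in the other 3 sets: Gng2, a G protein subunit gene, stood at 0.112 CPM, Pcsk6, a proprotein convertase gene, at 0.0559 CPM, and the mean log2 level of all genes tested at -0.32 relative to the scramble mean.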

How the results depend on the processing

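The number of genes following Klf5 was 0 in most settings, but 343 with DESeq2 and 52 without a filter, and 0 to 1 with an embryo left out (1 without embryo 5). In the scramble embryos it was 1 with DESeq2, 2 without a filter and 1 at a mean of at least 5 CPM. For the difference of slopes it was 6 with DESeq2 and 0 to 1 with an embryo left out (1 without scramble embryo 8). The shift at equal Klf5 went from 207 genes to 742 with DESeq2, 133 without a filter, 320 at a mean of at least 5 CPM, 617 with Klf5 over the scaled library size, 20 with Klf5 on a linear scale and 329 with a mitochondrial covariate, and lay between 2 and 243 with an embryo left out. The cause of these changes was not tested. The Mycl shift reversed from 6.29 to -3.79 without embryo 1, the 1 embryo with a high level (range -3.79 to 6.75 with an embryo left out).

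With the replicate number as a block over the 12 embryos that share numbers, the shift was called for 1 gene and the slope difference for 0. A fit of those 12 embryos without the block, chosen after seeing the data, called 82 and 0. Numbers were not taken as pairs, since same-numbered embryos correlated at -0.206 to 0.153 and 1 embryo correlated best with its own number.

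Genes in strict order numbered 66, and 214 to 410 with an embryo left out, where fewer steps must hold. Variable genes off the order numbered 691, and 201 at a mean of at least 20 CPM. On column totals 602 genes lay below and 129 above the scramble range in all 6 embryos, against 237 and 361. The TMM factors of the siRNA embryos had a mean log2 of -0.26 against 0.16 in the scramble embryos, and column totals leave these factors out. The correlation with Klf5 turned for total counts (0.618 without embryo 1, range -0.431 to 0.618), mitochondrial share (0.0659 without embryo 2, range -0.551 to 0.0659), ribosomal protein share (-0.205 without embryo 1, range -0.205 to 0.704) and the share of the 10 most abundant genes (0.11 without embryo 2, range -0.533 to 0.11). Of 903 alternative slopes of 57 named genes 0 changed direction. These 57 were kept because their slope in the same 6 embryos had an unadjusted p under 0.05 in edgeR. That choice favours a stable direction, so the count is no test of it. With 4 residual degrees of freedom, slopes near 1 were rarely detectable.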

Other observations

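Igf2, a growth factor gene expressed from the paternal copy, was at 35.0, 10.3, 29.3, 5.74, 8.55 and 2.32 CPM in the order of Klf5, inside the scramble range of 3.86 to 41.5 in all but embryo 1 (slope -1.41 ± 0.37, unadjusted p = 0.00332). Grb10, an imprinted adaptor of growth factor receptors, was at 30.2, 28.3, 15.4, 15.2, 5.39 and 3.86 CPM, so that the 4 embryos with the least Klf5 lay above the range of 1.20 to 9.85. Mest, another gene of the paternal copy, was at 65.3, 168, 41.6, 26.4, 6.51 and 139 CPM, with 5 embryos above the range of 0 to 22.1.

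X-linked genes made up 4.05% of the 13101 genes tested, 9.78% of the 542 genes lower with Klf5 and 3.06% of the 523 genes higher with Klf5 at an unadjusted p under 0.05. Plac1, an X-linked placental gene, was at 1021, 288, 876, 30.5, 847 and 91.1 CPM, with 3 embryos above the scramble range of 115 to 556 and 2 below it. Hk2, a glycolytic hexokinase gene, was at 41.7, 26.7, 112, 27.9, 233 and 462 CPM against 105 to 400, with a slope of 1.26 ± 0.37 (edgeR adjusted p = 0.383).

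In the embryonic stem cells Klf5 stood at 75.6 and 70.8 CPM with GFP and 1000.0 and 884 CPM with Klf5 overexpression. The log2 ratio of the means, with a pseudocount of 0.1 CPM and no test, was 0.10 for Cdx2, 0.87 for Eomes, -1.58 for Krt8 and -1.40 for Cldn4. Replicates of Krt8 lay far apart, at 802 and 345 CPM with GFP and 86.3 and 297 with Klf5. Those of Cldn4 were at 885 and 732 CPM with GFP and 281 and 333 with Klf5. The 4 libraries are in no comparison with the embryos.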
